A study of Mus musculus with 2 samples.

Results

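A set of 9 genes that sense or degrade extracellular nucleotides was followed across immune cells sorted from mouse pancreatic islets. They were chosen by symbol from the gene table of the mRNA library, 9 of its 32285 genes: the ATP-gated channels P2rx4 and P2rx7, the nucleotide receptors P2ry2, P2ry6, P2ry12, P2ry13 and P2ry14, the adenosine receptor Adora2b, and Entpd1, which encodes the ectonucleotidase CD39. Islets of 6 to 8 wild-type (WT) C57BL/6J males were pooled, no treatment is named in the labels, and living cells that carried the leukocyte antigen CD45 but not the epithelial antigen Epcam were sorted and stained with barcoded antibodies against CD9 and CD206. The pool was read as an mRNA library and an antibody library of the same 2237 barcodes, which makes 1 sample of cells with no replicate animal, day or group. Every interval given here is therefore a 95% interval for counting error alone, and no difference has a replicate check.

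Cells release ATP when they are damaged, when they are activated and, in beta cells, together with insulin. P2X receptors are cation channels that ATP opens, and P2Y receptors signal through G proteins and differ in ligand, from ATP and UTP to ADP, UDP and UDP-glucose. CD39 on the cell surface splits ATP and ADP to AMP, CD73 (Nt5e) turns AMP into adenosine, and adenosine acts on its own receptors. In macrophages the P2X7 channel is best known for driving the NLRP3 inflammasome, which releases the cytokine encoded by Il1b. Hmox1 encodes heme oxygenase, an antioxidant enzyme of the stress response.

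After quality filters 2175 cells remained, with a median of 19349 UMIs (unique molecular identifiers, each a counted RNA molecule; quartiles 13282 and 24745.5). Macrophages were the 1792 cells (82.4%) in which the complement genes C1qa, C1qb and C1qc together reached 2000 CPM (UMIs per 1000000 UMIs of the same cells), with a median of 20217.5 UMIs. Just inside this limit, between 2000 and 4000 CPM, lay 222 cells, and 47 lay just outside, between 1000 and 2000 CPM. Lymphocytes were the 146 other cells of T cell-like (109), B cell-like (29) and ILC2-like (8) clusters, with a median of 9188 UMIs, and dendritic cells were the 52 cells under the limit in the dendritic cell-like cluster, with a median of 24660 UMIs. All 10 macrophage markers other than C1q, Adgre1 and Csf1r among them, were at least 1.5-fold higher in macrophages than in either other class, and Mertk had no UMI in lymphocytes or dendritic cells. The T cell, NK cell and B cell lists summed to 10.5, 5.26 and 107 CPM in macrophages, with Eomes at 0, and to 2422, 1462 and 5693 CPM in lymphocytes. The ILC2 list set the classes less apart, at 665 CPM in macrophages and 2567 CPM in lymphocytes. The 16 dendritic cell markers summed to 112 CPM in macrophages and 2364 CPM in dendritic cells, and 15 of them were lower in macrophages. The same lists were used to name the clusters, so high sums in the lymphocyte and dendritic classes are no separate check. In the T cell-like cluster 7 of 10 NK cell markers also passed, so that T and NK cells were not separated. Another 21 cells of the dendritic cell-like cluster passed the C1q limit, had a median of 40591 UMIs and were counted as macrophages. RNA from macrophages was found in lymphocytes at 0.922% (C1qa), 0.836% (C1qb), 1.07% (C1qc) and 1.68% (Apoe) of the macrophage level, and the other macrophage-linked genes read this way (Il1b, Hmox1, Adgre1, Csf1r) lay between 1.05% and 2.73%. These shares are taken as the background of foreign RNA in a lymphocyte, and whether it was free RNA or came from joined cells was not tested.

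All 9 genes were counted, and each had at least 170 UMIs in macrophages. On the mouse build mm10 (GRCm38), P2rx7 at chr5:122643927-122692336 and P2rx4 at chr5:122707518-122729739 lie on the plus strand, 15181 bases apart. P2ry6 at chr7:100937630-100975498 lies 21069 bases from P2ry2 at chr7:100996568-101012053. P2ry14 (chr3:59114623-59153492), P2ry13 (chr3:59207892-59210882) and P2ry12 (chr3:59216271-59262985) lie on the minus strand inside Med12l (chr3:59005419-59318446), which is on the plus strand, and P2rx4 shares 11360 bases with Camkk2 on the opposite strand. Entpd1 is at chr19:40612366-40741602 and Adora2b at chr11:62248984-62266452. Whether strand was used in counting is not stated in the sources used here, so reads of these overlapping genes may not be told apart. Med12l stood at 1.70 CPM in macrophages, 5.57 CPM in lymphocytes and 20.1 CPM in dendritic cells, and Camkk2 at 47.7, 14.6 and 49.3 CPM in the same classes.

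The promoters of the neighbouring channel genes P2rx7 and P2rx4 are shown because the levels of these genes differed in how they went with Hmox1. The 250 bases before the start of the first promoter entry are printed on the plus strand. They are from RefSeq on GRCm38.p6, in which 8 of the 9 genes had an entry. The coordinates are chr5:122643677-122643926 for P2rx7 and chr5:122707294-122707543 for P2rx4. The P2rx4 window runs past the gene start given above (122707518), so its distances are counted from the start of the promoter entry. Capitals mark matches to the searched motifs.
P2rx7: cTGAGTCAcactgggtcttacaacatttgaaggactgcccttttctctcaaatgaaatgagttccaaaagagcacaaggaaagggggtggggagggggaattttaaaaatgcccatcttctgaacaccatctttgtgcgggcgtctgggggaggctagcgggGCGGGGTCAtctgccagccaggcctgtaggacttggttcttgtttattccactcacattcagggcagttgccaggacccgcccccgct
P2rx4: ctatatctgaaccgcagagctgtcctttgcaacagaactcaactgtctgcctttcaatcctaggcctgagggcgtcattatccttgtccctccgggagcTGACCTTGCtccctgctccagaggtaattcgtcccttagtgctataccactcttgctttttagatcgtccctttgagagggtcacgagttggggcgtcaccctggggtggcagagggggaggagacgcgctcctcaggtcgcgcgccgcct
Searched on both strands were TGACNNNGC (the element bound by NRF2, which acts on Hmox1), TGANTCA (AP-1), and GAANNTTC and TTCNNGAA (pairs of heat-shock units). In the P2rx7 window a TGANTCA match began 249 bases before the start and a TGACNNNGC match on the minus strand lay 88 bases before it, without overlap. The window of a second P2rx7 entry (chr5:122650133-122650382), which is not printed, held no match to any searched motif. The P2rx4 window held a TGACNNNGC match 151 bases before the start and no match to the other motifs. Among 32851 promoter windows of this length, 10.2% held TGACNNNGC, 6.75% TGANTCA, 6.69% GAANNTTC and 7.17% TTCNNGAA, so these matches are common and describe only the letters.

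The first comparison was of macrophages with lymphocytes. A gene was called higher or lower where the 2 sums held at least 20 UMIs and their CPM differed at least 1.5-fold. Of the 9 genes, 8 were higher and 1 was lower in macrophages, where 19.1% of all 13281 genes tested were higher and 49.2% lower. The median log2 ratio was 3.71 for the 9 genes and -0.56 for all genes, or 2.92 and -0.71 with sums of 0 set to a floor of 3 counts.

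Both ATP-gated channels were higher in macrophages than in lymphocytes. P2rx7 stood at 157 CPM (153 to 161) in macrophages and 9.75 CPM (5.33 to 16.4) in lymphocytes, a ratio of 16.1 (9.61 to 29.5). The lymphocyte value rests on 14 UMIs, 12 of them in T cell-like cells, and at 6.20% of the macrophage level it was above this background. P2rx4, a channel that responds to lower ATP than P2X7, stood at 134 CPM (131 to 138) in macrophages and 37.6 CPM (28.3 to 49.1) in lymphocytes, a ratio of 3.57 (2.73 to 4.76). With lymphocytes taken by a gate on marker UMIs in place of clusters (256 cells), the log2 ratios were 1.54 for P2rx7 and 0.93 for P2rx4, against 4.01 and 1.84 with clusters. The gate took cells under the C1q limit with at least 3 UMIs over the T cell, NK cell, B cell and ILC2 lists. Macrophages also carry RNA of the ILC2 list, so other cells may be among the 256, which was not tested. Within lymphocytes P2rx4 was at 89.0 CPM (59.1 to 129) in B cell-like and 22.2 CPM (14.1 to 33.3) in T cell-like cells, and these intervals do not overlap.

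Of the 5 P2Y receptors, 4 were higher in macrophages and P2ry14 was not. P2ry6, the receptor for UDP, had 4903 UMIs in 1200 of the 1792 macrophages (134 CPM, 131 to 138) and 3 UMIs in lymphocytes (2.09 CPM, 0.431 to 6.11). Its ratio was 64.3 (22.0 to 312), and the lymphocyte level was 1.55% of the macrophage level, within the range of the macrophage genes above, so that it reads as background. P2ry2, which binds ATP and UTP, stood at 6.03 CPM (5.26 to 6.88) in macrophages and had no UMI in lymphocytes (0 to 2.57 CPM). The lower bound of its ratio was 2.33, and set against the floor of 3 counts (2.09 CPM) the ratio was 2.89. The ADP receptor P2ry13 stood at 4.66 CPM (3.99 to 5.42) in macrophages and again had no UMI in lymphocytes. The lower bound of its ratio was 1.79, and set against the same floor the ratio was 2.23. The ADP receptor P2ry12, a target of antiplatelet drugs, stood at 9.10 CPM (8.15 to 10.1) in macrophages, against 1 UMI in lymphocytes, a ratio of 13.1 (2.33 to 518). By the marker gate the log2 ratio of P2ry6 was 2.87, against 6.01 with clusters, that of P2ry12 1.08, against 3.71, and that of P2ry14 -0.55, under 1.5-fold. After thinning P2ry12 had 70 UMIs in macrophages and none in lymphocytes, so its log2 ratio of 0.87 is set against the floor of 3 counts. That floor was 4.58 CPM in thinned lymphocytes. Thinned P2ry2 (52 UMIs, 6.23 CPM) and P2ry13 (38 UMIs, 4.55 CPM) in macrophages lay near it, and neither was given a direction. P2ry14, the receptor for UDP-glucose, stood at 8.99 CPM (8.04 to 10.0) in macrophages and 14.6 CPM (9.05 to 22.4) in lymphocytes, and the interval of its ratio of 0.615 reached 1 (0.395 to 1.01). Of its 21 lymphocyte UMIs, 19 were in T cell-like cells (18.4 CPM, 11.1 to 28.7), with 6 of them in 1 cell.

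Entpd1 was counted in 92.1% of macrophages and 13.7% of lymphocytes. It stood at 458 CPM (451 to 465) in macrophages and 36.2 CPM (27.0 to 47.5) in lymphocytes, a ratio of 12.6 (9.64 to 16.9). Its level was 39.6 CPM (28.4 to 53.7) in T cell-like and 34.96 CPM (17.5 to 62.6) in B cell-like cells, with overlapping intervals. Adora2b, the receptor that responds to high adenosine, stood at 5.26 CPM (4.54 to 6.06) in macrophages against 1 UMI in lymphocytes, a ratio of 7.56 (1.34 to 300). By the marker gate the log2 ratio of Entpd1 was 2.04, against 3.66 with clusters, and that of Adora2b was -1.46, against 2.92.

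Shares of cells with a UMI were also compared after each cell was thinned to 5000 UMIs, which left out 123 shallower macrophages, 15 lymphocytes and no dendritic cell. P2rx7 was seen in 30.7% of thinned macrophages, 2.29% of lymphocytes and 7.69% of dendritic cells, against 51.6%, 7.53% and 21.2% before thinning. P2ry6 was seen in 42.2%, 0.763% and 17.3% of the thinned cells of these classes, against 67.0%, 2.05% and 38.5% before thinning. Thinned P2ry14 was in 2.996% of macrophages, 5.34% of lymphocytes and 23.1% of dendritic cells, against 8.203%, 8.219% and 38.5% before thinning. Thinned P2rx4 was in 42.3% of macrophages, 13.7% of lymphocytes and 44.2% of dendritic cells, where the CPM put macrophages above dendritic cells, so no order is read between these 2 classes. For scale, C1qa was in 99.9%, 11.5% and 15.4% of the thinned cells of these classes.

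The rest of the pathway split between the classes. None of the other 5 P2X genes and 2 P2Y genes had more than 11 UMIs in macrophages, and P2rx2 and P2ry4 had none. Among the 4 adenosine receptors, Adora2a, the main adenosine receptor of lymphocytes, was at 3.48 CPM in macrophages and 94.0 CPM in lymphocytes, a ratio of 0.0370 (0.0288 to 0.0475). Of 11 ectoenzymes 7 were tested, 2 were higher and 4 lower in macrophages, with a median log2 ratio of -1.28. Nt5e (CD73), which makes adenosine from AMP, was at 0.658 CPM in macrophages and 131 CPM in lymphocytes, and Cd38, which degrades NAD, at 2.08 and 35.5 CPM. Enpp1, which splits ATP to AMP and pyrophosphate, was also lower in macrophages (ratio 0.331, 0.207 to 0.555), as was Ada, adenosine deaminase, with 92 UMIs in all (ratio 0.413), which fell outside the naming rule and was named after its value was seen. Pnp, purine nucleoside phosphorylase, was at 152 CPM in macrophages and 32.0 CPM in lymphocytes (ratio 4.75, 3.55 to 6.49).

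Of 5 tested genes for nucleotide release and nucleoside transport, 2 were higher and 2 lower in macrophages. Slc29a3, a nucleoside transporter of lysosomes, had a ratio of 16.6 (10.1 to 29.7) and Slc29a1 of the cell surface 2.25 (1.52 to 3.49). Panx1, an ATP-release channel, had a ratio of 0.311 (0.239 to 0.409) and Slc17a9, the vesicular nucleotide transporter, 0.204 (0.134 to 0.324). Among 6 inflammasome genes, 3 were higher and 1 lower in macrophages: Nlrp3 at 415 and 14.6 CPM (28.4-fold), Il18 at 20.4 and 1.39 CPM (14.6-fold), Casp1 at 56.9 and 25.1 CPM (2.27-fold), and Nek7 at 112 and 196 CPM (0.569-fold), with macrophages given before lymphocytes in each pair.

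**Figure D1:**
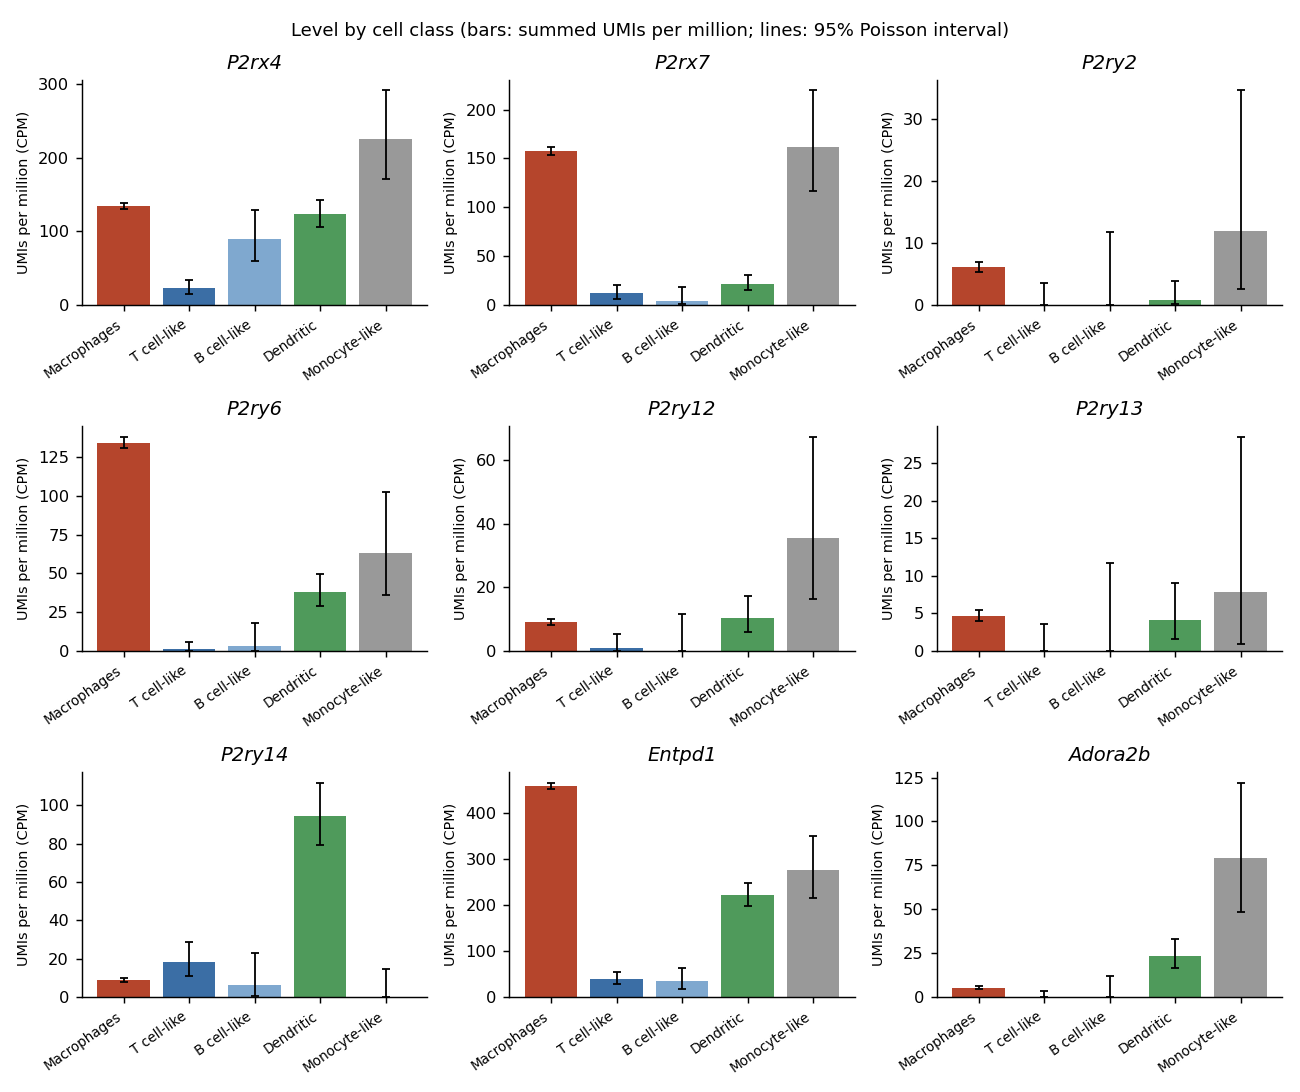
Summed CPM (vertical axes, linear from 0) of each of the 9 genes in macrophages, T cell-like, B cell-like, dendritic and monocyte-like cells; lines are 95% Poisson intervals for counting error. P2rx7 and P2ry6 are high in macrophages (157 and 134 CPM) and near 0 in lymphocytes, whereas P2ry14 is highest in dendritic cells (94.4 CPM) and Adora2b in the 17 monocyte-like cells (79.0 CPM).

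Dendritic cells shared some of these genes with macrophages and exceeded them in others. Of the 9 genes, 4 were higher and 2 lower in macrophages than in dendritic cells, where 19.8% of all 13038 genes tested were higher and 29% lower. The median log2 ratio was 0.16 for the 9 genes and -0.13 for all genes (-0.27 at the floor). P2ry14 stood at 8.99 CPM in macrophages and 94.4 CPM (79.2 to 112) in dendritic cells, a ratio of 0.0953 (0.0778 to 0.117). It was seen in 20 of the 52 dendritic cells, and the cell with most held 16.9% of its 136 UMIs. The 21 cells that lay in the dendritic cell-like cluster but passed the C1q limit held 53 of the 328 macrophage UMIs of P2ry14, 25 of them in 1 cell. Adora2b stood at 5.26 CPM in macrophages and 23.6 CPM (16.3 to 33.0) in dendritic cells, a ratio of 0.223 (0.154 to 0.331).

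P2rx7 and P2ry6 were higher in macrophages than in dendritic cells too. P2rx7 was at 157 CPM in macrophages and 21.5 CPM (14.6 to 30.5) in dendritic cells (7.31-fold, 5.15 to 10.8), with 15 of the 31 dendritic UMIs in 1 cell. P2ry6 was at 134 CPM in macrophages and 38.2 CPM (28.7 to 49.7) in dendritic cells (3.52-fold, 2.70 to 4.68). Entpd1 was at 458 CPM in macrophages and 222 CPM (198 to 248) in dendritic cells (2.06-fold, 1.85 to 2.31). P2ry2 had 1 UMI in dendritic cells, and its ratio of 8.69 (1.54 to 345) rests on it. After thinning it had 52 UMIs (6.23 CPM) in macrophages and none in dendritic cells. Set against the floor of 3 counts in dendritic cells (11.5 CPM), the thinned log2 ratio of P2ry2 was -0.89, which gives no direction. The intervals of the ratios of P2rx4 (1.09, 0.937 to 1.27), P2ry12 (0.874, 0.522 to 1.58) and P2ry13 (1.12, 0.504 to 3.09) included 1, which does not show equal levels.

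Other genes of the pathway that passed the naming rule against dendritic cells included Adora2a, at 3.48 CPM in macrophages and 22.2 CPM in dendritic cells, Slc29a3 (2.50-fold higher in macrophages), Slc29a1 (2.09-fold) and Nlrp3 (3.42-fold), while the adaptor Pycard (0.661-fold) and the pore-former Gsdmd (0.647-fold) were lower. The 6 cycling markers were all lower in macrophages, at 62.6 CPM in sum against 413 CPM in dendritic cells, and the part of cycling in these differences was not tested.

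The 3 smaller classes completed the order of levels. The 17 monocyte-like cells (median 14250 UMIs) had the highest level of Adora2b, 79.0 CPM (48.2 to 122, 20 UMIs in 9 cells), above the intervals of dendritic cells and of macrophages. Their P2rx4 was at 225 CPM (170 to 292), also above both. Their P2rx7 at 162 CPM (116 to 220) overlapped that of macrophages, with 17 of its 41 UMIs in 1 cell. Their P2ry6 at 63.2 CPM (36.1 to 103) lay between dendritic cells and macrophages and overlapped only dendritic cells. The 42 endocrine-like cells had Adora2b at 19.9 CPM (14.3 to 27.0), a level not separated from that of dendritic cells, and Entpd1 at 3.89 CPM (1.68 to 7.66). The 22 endothelial-like cells had P2ry2 at 26.3 CPM (12.01 to 49.9, 9 UMIs) and Entpd1 at 306 CPM (251 to 371). In 90 further cells of macrophage clusters, which missed the C1q limit and had a median of 2583.5 UMIs, P2rx7 stood at 285 CPM (248 to 325), above the macrophage class.

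Within macrophages the 9 genes varied between clusters that had been formed without them. Of the clusters, 10 had C1q in most of their cells, and 9 of these were deep enough to compare (the other had a median of 3045 UMIs). P2rx7 ran from 52.9 CPM in the cluster led by Ifit3 and Cmpk2, which are interferon-induced genes, to 400 CPM in the cluster led by the heat-shock genes Hspa1b and Hspa1a, a 7.57-fold span. It stood at 304 CPM in the cluster led by Gdf15 and Kntc1 and at 264 CPM in the cluster led by Ifnb1 and Ptgs2, and at 70.2 to 116 CPM in the other clusters. Although left out of the clustering, P2rx7 was itself among the 10 leading genes of the Gdf15 cluster. P2ry6 ran nearly the other way. It was lowest in the heat-shock cluster (34.7 CPM) and the Gdf15 cluster (59.5 CPM) and highest in the cluster led by Myo1f, Tgfbr1 and Cx3cr1 (240 CPM), a 6.92-fold span. Over these 9 clusters the correlation of log2(CPM + 10) was -0.80 between P2rx7 and P2ry6 and 0.85 between P2rx7 and Hmox1, given as a description since the clusters share 1 library.

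Entpd1 lay between 383 and 599 CPM in 8 of the 9 clusters, with its highest level in the cluster led by Slc40a1 and Pparg, and at 164 CPM in the 29 cells of the cluster led by Gm47507. P2rx4 ran from 73.9 CPM in that cluster to 179 CPM in the cluster led by Gpnmb and Pltp. Adora2b stood at 22.9 CPM (18.6 to 28.0, 98 of the 192 macrophage UMIs) in the Gpnmb cluster and between 0.953 and 7.92 CPM in the other 8. The macrophages of the Gpnmb cluster carried a mean of 3958 CD9 antibody UMIs, against 1682 over all macrophages. P2ry12 (34.3 CPM) and P2ry13 (13.2 CPM) were highest in the small Gm47507 cluster, P2ry2 in the Ifnb1 cluster (12.5 CPM), and P2ry14 in the Gpnmb, Myo1f and Ifit3 clusters (13.3, 13.2 and 11.8 CPM).

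**Figure D2:**
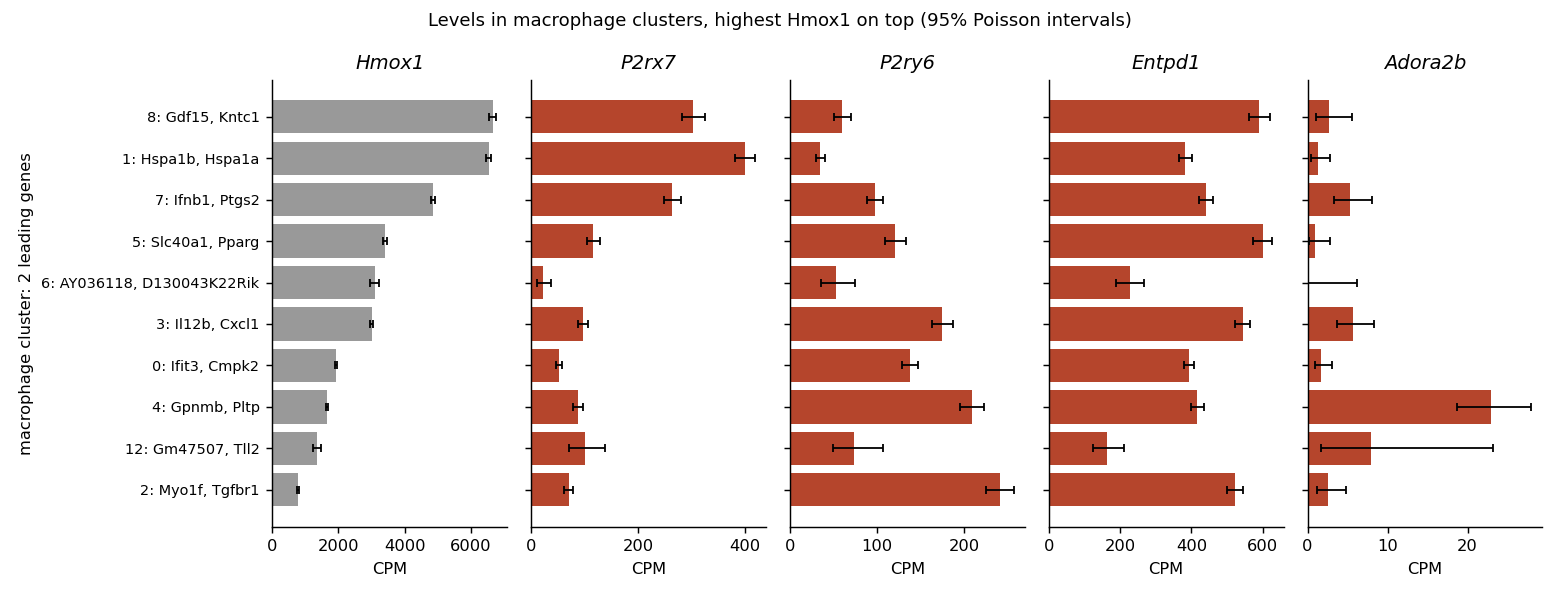
Summed CPM (horizontal axes, linear from 0) of Hmox1 and of P2rx7, P2ry6, Entpd1 and Adora2b in the 10 macrophage clusters, ordered by Hmox1 with the highest on top; lines are 95% Poisson intervals. The 3 clusters with most Hmox1 have P2rx7 at 304, 400 and 264 CPM, and Adora2b stands out in the Gpnmb cluster at 22.9 CPM.

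The UMIs of P2rx7 were also gathered in few cells. In macrophages thinned to 5000 UMIs, the 10% of cells with most P2rx7 held 64.5% of its UMIs, against 41.9% for P2rx4, 42.2% for P2ry6 and 33.1% for Entpd1. The variance of P2rx7 over its mean was 3.69, against 1.37 for P2rx4, 1.52 for P2ry6 and 2.40 for Entpd1, where counting alone gives 1.

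The next comparison was of macrophages by their Il1b level, the cytokine whose release P2X7 is known to drive. Cells were ranked by Il1b CPM within deciles of depth, and the highest tercile was compared with the lowest (600 cells each, median 20241 and 20241.5 UMIs). Il1b itself, on which the terciles were formed, stood at 4514 CPM in Il1b-high and 110 CPM in Il1b-low cells. Of the 9 genes 1 was higher and 0 lower in Il1b-high cells, where 5.4% of 12102 genes were higher and 11.6% lower. The median log2 ratio was 0.15 for the 9 genes and -0.14 for all genes. P2rx7 stood at 153 CPM in Il1b-high and 143 CPM in Il1b-low cells, a ratio of 1.08 (1.01 to 1.15), and was seen in 51.0% and 50.3% of these cells. P2rx4 had a ratio of 1.12 (1.04 to 1.197), Entpd1 of 1.16 (1.11 to 1.201) and P2ry6 of 0.848 (0.791 to 0.908).

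The higher gene was P2ry13, with 66 UMIs in Il1b-high and 41 in Il1b-low cells (1.57-fold, 1.05 to 2.38), and its ratio was 1.36 without the cell that held most of its UMIs. Without the heat-shock cluster its log2 ratio was -0.00017. Among the pathway lists, Nlrp3 was 2.04-fold higher in Il1b-high cells (1.96 to 2.13). With Il1b terciles formed inside each macrophage cluster, P2rx7 was higher in Il1b-high cells in 1 of 8 clusters with enough UMIs, with ratios between 0.463 and 1.03, and in 3 of them it was at least 1.5-fold lower. In the heat-shock cluster it stood at 292 CPM in Il1b-high and 535 CPM in Il1b-low cells (0.546, 0.485 to 0.614), and in the Ifnb1 cluster at 172 and 371 CPM (0.463, 0.395 to 0.541). Ranked within clusters over all macrophages, the log2 ratio of P2rx7 was -0.60, and over all alternatives it lay between -0.60 and 0.27. Immediate-early genes, which respond to handling among other things, were higher in Il1b-high cells for 7 of 8 genes (2588 against 1453 CPM in sum) and heat-shock genes for 3 of 8 (11362 against 8763 CPM).

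The third ranking was by Hmox1, and of the rankings it gave the most calls, both among the 9 genes and among all genes. Hmox1 stood at 7221 CPM in Hmox1-high and 353 CPM in Hmox1-low cells (600 each, median 20237.5 and 20201.5 UMIs). In Hmox1-high cells 2 of the 9 genes were higher and 4 lower, where 12.1% of 12063 genes were higher and 28.1% lower. The median log2 ratio was -0.30 for the 9 genes and -0.25 for all genes. P2rx7 stood at 293 CPM (284 to 303) in Hmox1-high and 52.0 CPM (48.0 to 56.2) in Hmox1-low cells, a ratio of 5.65 (5.19 to 6.16), and was seen in 61.7% and 46.0% of these cells. P2ry6 stood at 70.5 CPM (65.9 to 75.4) in Hmox1-high and 209 CPM (201 to 218) in Hmox1-low cells, a ratio of 0.337 (0.312 to 0.364), and was seen in 48.2% and 80.3% of them.

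Of the 5 receptors of lower level, 3 were lower in Hmox1-high cells, 1 was higher and P2ry2 was neither. P2ry12 was at 5.91 CPM in Hmox1-high and 12.1 CPM in Hmox1-low cells (0.487, 0.362 to 0.650) and P2ry14 at 5.83 and 12.5 CPM (0.468, 0.348 to 0.624). Adora2b was at 3.78 CPM in Hmox1-high and 6.76 CPM in Hmox1-low cells (0.558, 0.380 to 0.811). P2ry13 was at 6.90 CPM in Hmox1-high and 3.30 CPM in Hmox1-low cells (2.09, 1.42 to 3.13), with 19 of its 84 UMIs in 1 cell and a ratio of 1.62 without it. Of these 4 genes only P2ry12 stayed past 1.5-fold under every alternative run. The log2 ratio of Adora2b was 0.69 ranked within heat-shock deciles, -0.11 within clusters, -0.52 with a C1q limit of 4000 CPM and -0.56 without the heat-shock cluster. That of P2ry14 was -0.24 within clusters and -0.35 within heat-shock deciles, and that of P2ry13 was -0.18 and -0.22 in these rankings. Dendritic cell markers summed to 84.9 CPM in Hmox1-high and 133 CPM in Hmox1-low cells (5 of 16 lower and 3 higher) and endothelial markers to 8.29 and 21.9 CPM (3 of 6 lower), and their part in these values was not tested. P2rx4 (0.810, 0.757 to 0.866), P2ry2 (1.18, 0.837 to 1.66) and Entpd1 (1.14, 1.10 to 1.18) stayed inside 1.5-fold.

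Over the 10 deciles of Hmox1, from low to high, P2rx7 stood at 57.5, 57.4, 46.1, 78.2, 123, 159, 148, 219, 306 and 380 CPM. P2ry6 stood at 231, 206, 202, 157, 111, 132, 102, 79.8, 69.9 and 52.7 CPM over the same deciles. P2rx7 showed no increase over the lowest 3 deciles and was higher in each later decile than in the one before except the seventh, and P2ry6 was lower in each decile than in the one before except the sixth. Entpd1 was at 432 CPM in the lowest and 535 CPM in the highest decile, P2rx4 at 168 and 111 CPM, P2ry12 at 13.8 and 5.0 CPM and P2ry14 at 12.4 and 2.8 CPM. Over the deciles of Il1b, P2rx7 lay between 115 and 212 CPM, with 141 CPM in the lowest and 146 CPM in the highest decile.

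**Figure D3:**
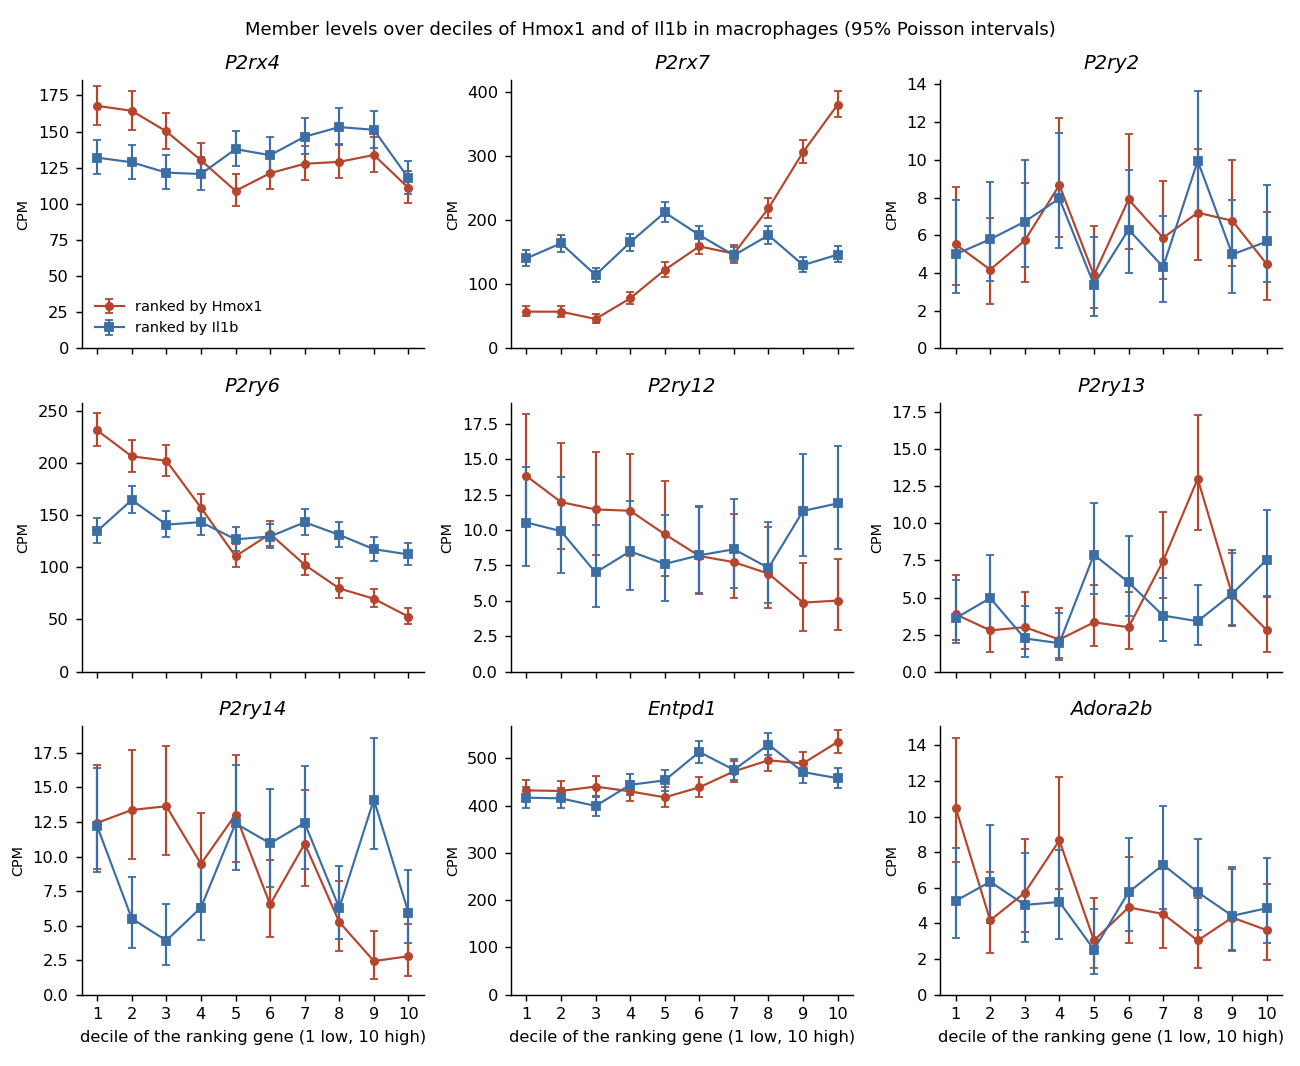
Summed CPM (vertical axes, linear from 0) of the 9 genes over deciles of Hmox1 (red circles) and of Il1b (blue squares) in macrophages, ranked within depth; lines are 95% Poisson intervals. P2rx7 goes up and P2ry6 down over the deciles of Hmox1 (380 and 52.7 CPM in the highest). P2rx7 is at a like level in the lowest and highest deciles of Il1b. By Il1b terciles the ratio of P2ry6 was 0.848.

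Splitting macrophages at the medians of both ranking genes placed the difference on the Hmox1 side. P2rx7 was at 231 CPM in cells high in both Il1b and Hmox1 and 253 CPM in cells high in Hmox1 alone, against 78.8 CPM in cells high in Il1b alone and 65.6 CPM in cells low in both. P2ry6 was at 78.0 and 97.6 CPM in the Hmox1-high cells with high and low Il1b, and at 176 and 187 CPM in the Hmox1-low cells with high and low Il1b.

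Other genes that go with stress moved with Hmox1. The 8 heat-shock genes summed to 16272 CPM in Hmox1-high and 4590 CPM in Hmox1-low cells, with 7 of 8 higher, and the 8 immediate-early genes to 2580 and 1393 CPM, with 6 of 8 higher. Endocrine markers summed to 1923 CPM in Hmox1-high and 4752 CPM in Hmox1-low cells, with 6 of 8 lower. P2ry6 stood at 2.92 CPM in the endocrine-like cells, and the part of endocrine RNA in its values was not tested. The mean CD9 count was 1429 in Hmox1-high and 2068 in Hmox1-low cells. When cells were ranked by Hmox1 within deciles of the summed heat-shock level, the log2 ratio was 0.92 for P2rx7 and -0.68 for P2ry6, against 2.50 and -1.57 with ranking within depth. It was 1.99 and -1.25 without the heat-shock cluster. The direction held for both in these settings, at a smaller size.

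The same ranking inside each cluster gave P2rx7 higher in Hmox1-high cells in 7 of the 8 clusters with enough UMIs, at least 1.5-fold in 6. The ratios ran from 0.816 (0.606 to 1.10) in the Myo1f cluster to 3.45 (2.76 to 4.35) in the Gdf15 cluster. In the Gdf15 cluster P2rx7 stood at 392 CPM in Hmox1-high and 114 CPM in Hmox1-low cells, and in the Gpnmb cluster at 141 and 46.1 CPM (3.06, 2.30 to 4.11). P2ry6 was below 1 in 9 of 9 clusters, at least 1.5-fold in 7, with ratios from 0.180 in the shallow cluster, on 20 UMIs, to 0.845 (0.716 to 0.998) in the Myo1f cluster.

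Among the other genes of the pathway, the inflammasome list was split in Hmox1-high cells. Nlrp3, the sensor, was at 557 CPM in Hmox1-high and 264 CPM in Hmox1-low cells (2.11-fold), whereas Pycard, the adaptor, was at 20.03 and 55.0 CPM (0.364-fold), Nek7 at 68.8 and 160 CPM (0.431-fold) and Casp1 at 44.0 and 66.7 CPM (0.659-fold). None of the 5 tested release and transport genes differed 1.5-fold. Of 5 tested ectoenzymes 2 were higher in Hmox1-high cells, Cd38 with 50 UMIs and Ada with 42 UMIs in the 2 sums, and of 3 tested adenosine receptors Adora2b and Adora3 were lower, Adora3 with 54 UMIs. Cd38, Ada and Adora3 fell outside the naming rule and were named after their values were seen.

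**Figure D4:**
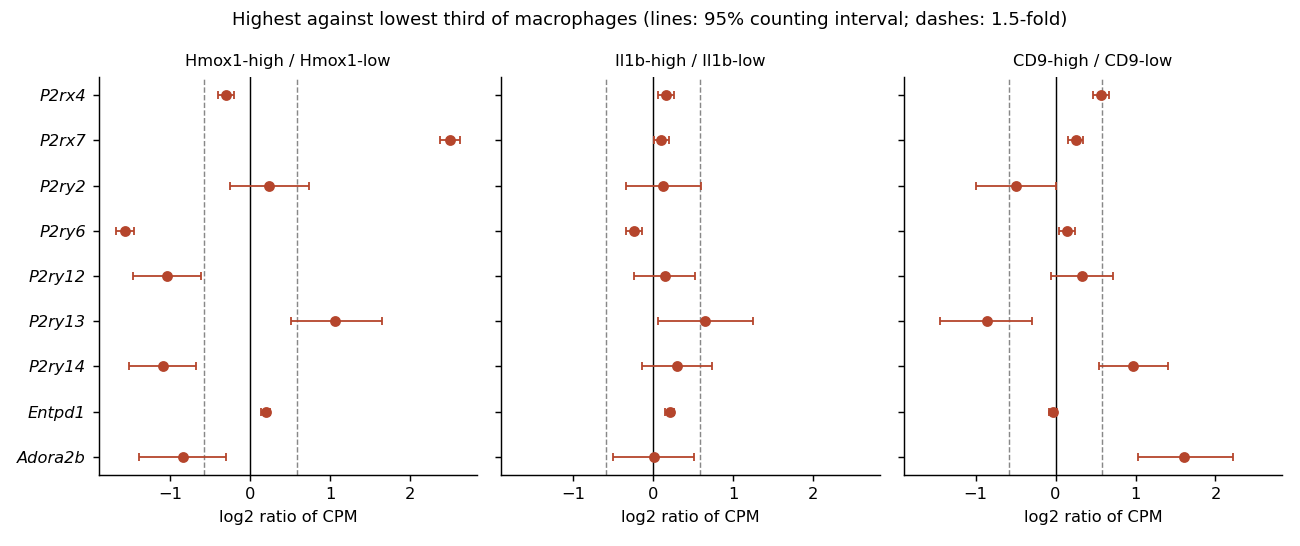
log2 ratio of CPM of each of the 9 genes between the highest and lowest terciles of macrophages by Hmox1, Il1b and CD9 antibody count (600 cells each); lines are 95% counting intervals and dashed lines mark 1.5-fold. P2rx7 (2.50) and P2ry6 (-1.57) lie farthest from 0 by Hmox1, and Adora2b (1.61) by CD9.

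The last ranking was by surface CD9, the protein the antibody library measured. CD9-high cells carried a mean of 4018 and CD9-low cells a mean of 119 CD9 UMIs (600 each). In CD9-high cells 2 of the 9 genes were higher and 1 lower, where 11.6% of 12118 genes were higher and 5.43% lower, and the median log2 ratio was 0.25 for the 9 genes and 0.09 for all genes. Adora2b had 108 UMIs in the CD9-high cells (8.46 CPM, 6.94 to 10.2) and 33 UMIs in the CD9-low cells (2.77 CPM, 1.91 to 3.89). Its ratio was 3.05 (2.05 to 4.65), and it was seen in 11.7% and 3% of them. Ranked within clusters its log2 ratio was 0.38, under 1.5-fold. P2ry14 had 145 UMIs (11.4 CPM) in the CD9-high cells and 69 UMIs (5.80 CPM) in the CD9-low cells (1.96, 1.46 to 2.65), with 25 of its UMIs in 1 cell and a ratio of 1.62 without it. The log2 ratio of P2ry14 was 0.36 with macrophages taken from C1q clusters alone and 0.26 ranked within clusters. P2ry13 had 42 UMIs (3.29 CPM) in the CD9-high cells and 71 UMIs (5.96 CPM) in the CD9-low cells (0.551, 0.367 to 0.819), and at 0.753 without the cell with most UMIs. P2rx4 was counted at 158 CPM in the CD9-high and 107 CPM in the CD9-low cells, which is a ratio of 1.48 (1.38 to 1.59) just under the limit, while P2rx7 (1.19), P2ry6 (1.10) and Entpd1 (0.978) differed less. The dendritic cell markers, beside these, summed to 138 CPM in the CD9-high and 87.2 CPM in the CD9-low cells (9 of 16 higher) and the monocyte markers to 49.6 and 14.9 CPM (4 of 8 higher). Endothelial markers summed to 20.8 CPM in the CD9-high and 9.91 CPM in the CD9-low cells (4 of 6 higher) and endocrine markers to 2440 and 3582 CPM (3 of 8 lower and 1 higher), and the part of these 4 lists in the values of P2ry14 and Adora2b was not tested. Of the other adenosine genes Adora2a (79 UMIs), Nt5e (21 UMIs) and Cd38 (29 UMIs) were higher in CD9-high cells, by 3.98-, 3.96- and 2.93-fold, and these were named after their values were seen.

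CD206, the mannose receptor, was the second protein of the antibody library, and its terciles were compared after the other values had been seen. CD206-high macrophages carried a mean of 56.3 and CD206-low macrophages a mean of 2.81 CD206 UMIs (600 each), and a mean of 2679 and 961 CD9 UMIs. In CD206-high cells 4 of the 9 genes were higher and 0 lower, where 6.66% of all 12170 genes tested were higher and 5.02% lower. P2ry14 stood at 13.4 CPM in CD206-high and 5.03 CPM in CD206-low cells (2.67-fold, 1.98 to 3.65), and P2ry12 at 10.8 and 6.79 CPM (1.59-fold, 1.201 to 2.12). Adora2b was at 6.92 CPM in CD206-high and 4.44 CPM in CD206-low cells (1.56-fold, 1.09 to 2.24, and 1.47-fold without the cell with most UMIs). P2ry13 was at 6.28 and 4.11 CPM in these cells (1.53-fold, 1.06 to 2.23), and at 1.16-fold without the cell with most UMIs. After thinning to 5000 UMIs, P2ry12 stood at 9.19 CPM in CD206-high and 6.19 CPM in CD206-low cells and Adora2b at 6.71 and 4.74 CPM, both under 1.5-fold; no other alternative was run for CD206. Monocyte markers summed to 54.7 CPM in CD206-high and 23.6 CPM in CD206-low cells (4 of 8 higher), dendritic cell markers to 133 and 102 CPM (6 of 16 higher), endothelial markers to 21.0 and 11.2 CPM (3 of 6 higher) and endocrine markers to 2168 and 3650 CPM (5 of 8 lower). The part of these markers in the 4 values was not tested. P2rx7 was at 175 CPM in CD206-high and 138 CPM in CD206-low cells (1.26-fold, 1.18 to 1.35).

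Genes whose level was most like that of each of the 9 over 15 clusters of at least 25 cells were ranked among 6544 genes by the correlation of log2(CPM + 10). Among the nearest genes were Mdm2 (0.98), Zfand2a (0.97) and Osm (0.96) for P2rx7, Lrrc25 (0.98) and Igsf6 (0.97) for P2ry6, and Slc8b1 (0.98), Plekho2 (0.97) and Nfe2l2 (0.97) for Entpd1. For P2rx4 they were Sh3bp2 (0.90), Slc37a2 (0.89) and Apobec1 (0.89), and for P2ry14 Klri1, Ly75 and Abcg3 (0.90 each). P2ry2 was nearest to Degs1 (0.94), P2ry13 to Enthd1 (0.92), P2ry12 to Nlrp1b (0.88) and Adora2b to Ift57 (0.78). The 15 clusters took in T cell-like, B cell-like, dendritic cell-like, endocrine-like and endothelial-like clusters beside those of macrophages. The correlations therefore mix differences between classes with those within macrophages. Between P2ry6 and Hmox1 the correlation was 0.67 over the 15 clusters and -0.71 over the 9 deeper macrophage clusters. Between P2rx7 and Hmox1 it was 0.85 over either set. These values describe 1 library, and the highest of 6544 correlations is high by selection.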

How the data were processed

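The mRNA and antibody libraries of 1 pooled sample were analysed. The deposited values are raw UMI counts for every gene or tag in each cell. Cell Ranger 8.0.1 made them, per the file headers, on mm10, per the submitters' processing notes; how barcodes were selected is not stated in the sources used here. Where IDs shared a symbol (40 symbols), the ID with more UMIs kept it.

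Cells needed 200 detected genes and a mitochondrial share of no more than 10% (2215 of 2237 passed). The doublet caller of scanpy 1.11.5 marked 7 cells (0.316%), under the 0.5% set as the least accepted, so the 40 highest-scoring cells were removed. Clustering used 2000 variable genes, 30 components, 15 neighbours and Leiden at resolution 1 (leidenalg 0.10.2), and gave 18 clusters; 46 genes, among them the 9 genes, their pathway lists, Il1b, Hmox1, Cd9 and Mrc1, were left out of it. Classes other than the C1q-defined macrophages were named from marker lists, and each such name means "X-like". A marker passed at 25% of cells and a CPM (with 10 added) 2 times that of other cells, and 3 were needed.

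Levels are summed UMIs per 1000000 (CPM) with exact Poisson intervals, and ratios carry exact conditional binomial intervals, both at 95% (scipy 1.17.1). Shares of cells are given without a test. A sum of 0 was set to a floor of 3 counts over the class. No p-value was computed, because cells are not replicates. Ratio steps were tested on simulated data. Depth ran from 504 to 179141 UMIs per kept cell.

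The 9 genes, the lists and the rankings were chosen with earlier results of these data known. List genes were named with at least 100 UMIs and a 1.5-fold ratio, at most 4 per list and direction by the interval bound nearest to 1; like genes were the 3 nearest among genes reaching 50 CPM, of which 1 is not reported here. Alternatives covered the C1q limit, doublets, gene minimum, resolution, class definition, per-cell means, thinning, UMI minimum, tercile width and ranking within depth or cluster. Those that left out the shallow, heat-shock or Gdf15 cluster, or ranked within heat-shock deciles, were added after seeing the data.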

Additional observations from a re-analysis of the deposited data

How the results depend on the processing

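Of 600 values of the 9 genes under alternatives, 512 stayed near the reported value, 81 moved, and 7 that had been past 1.5-fold changed sign. Another 3 gave no direction, all after thinning. They were P2ry2 and P2ry13 against lymphocytes and P2ry13 by Il1b. P2rx7 stayed at least 1.5-fold higher in macrophages than in lymphocytes (log2 1.54 to 4.66) and dendritic cells (2.39 to 3.02) and in Hmox1-high cells (0.92 to 2.58), and P2ry6 (-1.83 to -0.68) and P2ry12 (-1.38 to -0.83) stayed lower in Hmox1-high cells, under every alternative run. The log2 ratios past 1.5-fold that changed sign were Adora2b against lymphocytes from the marker gate (-1.46), P2ry2 against dendritic cells after thinning (-0.89), P2ry13 by Il1b without the heat-shock cluster (-0.00017), P2ry13 by Hmox1 ranked within clusters (-0.18) or within heat-shock deciles (-0.22), Adora2b by Hmox1 within heat-shock deciles (0.69) and P2ry13 by CD9 ranked without regard to depth (0.046). The value of P2ry2 is set against the floor of 3 counts, since thinned dendritic cells had no P2ry2 UMI, and gives no direction. The cause of the other changes was not tested. Among ratios within 1.5-fold, that of P2rx7 by Il1b was below 0 within clusters (-0.60), within heat-shock deciles (-0.33), with quintiles (-0.14), with a split at the median (-0.037) and with a C1q limit of 4000 CPM (-0.014).

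Counts of the 9 genes that moved by more than 1.5 times were these. By Il1b, the number higher (1) was 2 with a C1q limit of 4000 CPM and within heat-shock deciles, and 0 without doublet removal, after thinning, with a split at the median, with quintiles, without regard to depth and without the heat-shock cluster; the number lower (0) was 1 within clusters, which was P2rx7. By Hmox1, the number higher (2) was 1 with quintiles and within clusters, and the number lower (4) was 2 within clusters and within heat-shock deciles (and 3 with a C1q limit of 4000 CPM and without the heat-shock cluster). By CD9, the number higher (2) was 1 with C1q clusters alone, after thinning and with a split at the median, 4 with quintiles and 0 within clusters; the number lower (1) was 0 with per-cell means, without regard to depth and within heat-shock deciles, and 2 with quintiles.

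Depth limits the receptors of low level: P2ry2, P2ry12, P2ry13, P2ry14 and Adora2b had 170 to 332 UMIs over all macrophages. In lymphocytes the interval of a count of 0 reached 2.57 CPM. No paired analysis was possible because the series holds 1 sample of cells and its labels give no replicate numbers.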
